A study of Arabidopsis thaliana with 2 samples.

Results

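Plants keep hydrogen peroxide and superoxide low with a set of enzymes that includes catalases, superoxide dismutases, the peroxidases and reductases of the ascorbate-glutathione cycle and thiol peroxidases. The 36 genes described here encode these enzymes and 3 steps of ascorbate synthesis in Arabidopsis thaliana. They were chosen by name as loci of the pathway, out of 23667 loci with counted reads, and 35 of them had counts. RNA was sequenced from whole seedlings, 12 days old and grown at 20 °C in long days on GM medium plates, with no treatment. The FMO5-OE library came from seedlings in the Col-0 background with the genotype label FMO5-OE T1, read here as overexpression of FMO GS-OX5, a flavin-containing monooxygenase. The Col-0 library came from wild-type seedlings of the same accession, the common laboratory strain. The sources used here do not give what T1 means, which promoter drives the transgene or whether plants were pooled. With 1 library for each genotype there was no replicate check and no test, and genotype cannot be told apart from any other difference between the seedling samples.

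In the ascorbate-glutathione cycle, ascorbate peroxidases reduce hydrogen peroxide with ascorbate. Monodehydroascorbate and dehydroascorbate reductases then restore ascorbate. Dehydroascorbate reductases spend glutathione, which glutathione reductase regenerates with NADPH. Catalases remove hydrogen peroxide in peroxisomes without a reductant, superoxide dismutases turn superoxide into hydrogen peroxide, and peroxiredoxins and the glutathione peroxidase-like enzymes of plants draw electrons from thioredoxins. In green tissue, chloroplasts and the photorespiring peroxisomes are known as main sources of these oxidants.

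FMO GS-OX5 (AT1G12140) had 1379 reads in the FMO5-OE library, against 28 in the Col-0 library, a 43.6-fold difference (95% counting interval 30.1 to 65.9). Of the gene's transcript model with most reads, they covered 8.15% in FMO5-OE and 6.48% in Col-0, so the counts stand for a small part of the gene. The libraries held 12.21 M counted reads for FMO5-OE and 11.56 M for Col-0. A single read was worth 0.0792 CPM in FMO5-OE and 0.0894 CPM in Col-0, where CPM are counts scaled to an equal library total with TMM factors. Each counting interval is the exact Clopper-Pearson interval of a gene's share of its reads in both libraries, and covers counting error alone.

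The antioxidant genes differed little between the libraries. Log2 ratios were taken of CPM + 1 with FMO5-OE on top, which understates the difference of low genes, and 27 members had 5 CPM or more in the higher library. Of these 27, 0 were higher in FMO5-OE by 1.5-fold or more and 0 were lower by as much, while 3.38% of 13019 nuclear loci were past that rule as higher and 2.26% as lower. At 2-fold the counts were again 0 and 0, against 0.737% and 0.346% of nuclear loci. With shares this small in all loci, a count of 0 among 27 is near the background and is not a result about these genes. A 1.2-fold rule, chosen after these counts were seen, had 1 member higher (MSD1) and 4 lower (CAT2, VTC2, 2CPA and FSD3) in FMO5-OE, against 14.9% and 15.5% of nuclear loci. With total count CPM in place of TMM the split was 5 higher and 2 lower, without 2CPA and FSD3, so that split depends on the scaling. In whole seedlings, fewer cells of a type and less RNA per cell cannot be told apart. Of 33 members at 1 CPM or more, 12 lay above 0 and 21 below, with a median log2 ratio of -0.09 (order-statistic 95% interval -0.14 to 0.02), beside -0.0026 for 18060 nuclear loci past the same minimum.

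**Figure D1:**
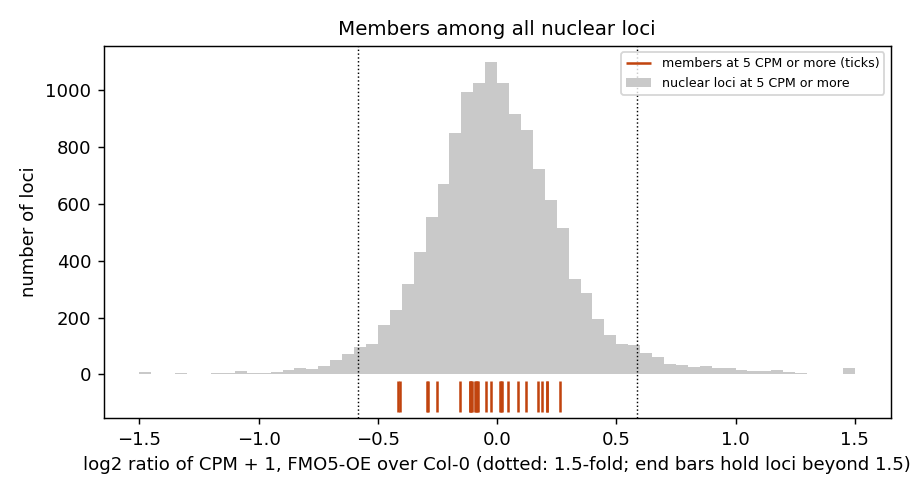
Number of nuclear loci at 5 CPM or more (grey bars) by log2 ratio of CPM + 1, FMO5-OE over Col-0, with the 27 members past the same minimum as ticks below. The ticks lie between -0.42 and 0.26, inside the dotted lines that mark 1.5-fold.

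How much of each gene was counted decides how its level can be read. The deposited counts are of uniquely assigned reads per transcript model, and reads were 49 bases long. The reads of 22 members covered between 81.6% and 99.8% of the leading model, the model of the gene with most reads. In 13 other members they covered between 3.24% and 15.9%: CAT2, CAT3, APX1, SAPX, MSD1, MDAR1, MDAR3, MDAR6, DHAR1, GR1, GPX3, PRXQ and VTC1. Of these 13 genes, 8 had several listed models and 5 had 1. Their counts stand for a small part of the gene in both libraries, and their levels are not comparable with those of the other 22. APX1 and CAT3, known as abundant enzymes of leaf cells, are in this class, with 14 reads and 24 reads in FMO5-OE, against 15 and 16 reads in Col-0. APX2, a heat-inducible cytosolic ascorbate peroxidase, had no row in either table and was taken as a count of 0, which allows up to 3 reads, or 0.238 CPM in FMO5-OE and 0.268 CPM in Col-0.

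**Figure D2:**
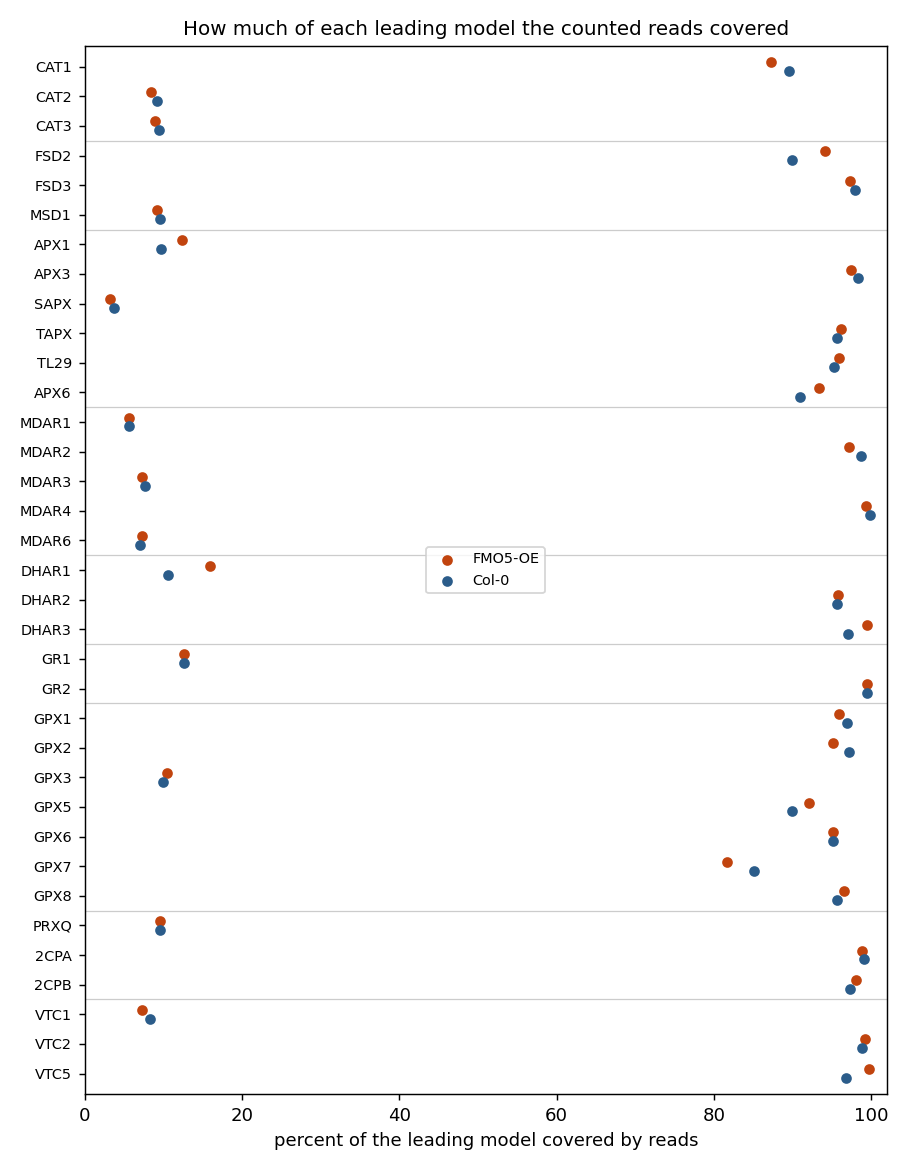
Percent of the leading transcript model covered by counted reads, for the 35 members with counts, in FMO5-OE and Col-0. Genes fall into a class of 22 at 81.6% or more and a class of 13 at 15.9% or less, and each gene falls into the same class in both libraries.

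Sequence from the annotated models shows where the models of 3 of these genes differ. PRXQ, a thioredoxin-dependent peroxiredoxin of plastids, has models 1 and 2 that differ by 3 bases at the start of exon 2. The junction of exons 1 and 2 is shown for both because only reads that cross it can tell the models apart there, with the extra bases of model 2 in capitals (chr3:9524963-9525539, plus strand, TAIR10.1 with its intron removed).
PRXQ model 1: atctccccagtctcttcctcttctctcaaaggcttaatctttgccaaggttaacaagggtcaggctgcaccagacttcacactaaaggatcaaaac
PRXQ model 2: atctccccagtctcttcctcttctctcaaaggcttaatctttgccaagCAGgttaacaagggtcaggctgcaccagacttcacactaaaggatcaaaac
Stretches of 49 bases around this junction that model 2 lacks span 94 bases of model 1, and reads counted on model 1 covered 93 bases in FMO5-OE and 93 bases in Col-0. MSD1, the manganese superoxide dismutase of mitochondria, has annotated models that differ by 3 bases at the end of exon 3, shown in capitals (chr3:3418990-3419199, plus strand, intron removed).
MSD1 model 1: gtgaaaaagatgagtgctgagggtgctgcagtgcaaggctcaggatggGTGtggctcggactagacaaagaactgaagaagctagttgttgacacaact
Stretches that MSD1 model 2 lacks span 98 bases around that junction, and counted reads covered 94 bases in FMO5-OE and 98 bases in Col-0. CAT2, the main catalase of photorespiring leaves, has a model 2 that keeps the intron between exons 7 and 8 of model 1. That intron is in capitals between the flanking exon ends (chr4:16700949-16701158, minus strand).
CAT2: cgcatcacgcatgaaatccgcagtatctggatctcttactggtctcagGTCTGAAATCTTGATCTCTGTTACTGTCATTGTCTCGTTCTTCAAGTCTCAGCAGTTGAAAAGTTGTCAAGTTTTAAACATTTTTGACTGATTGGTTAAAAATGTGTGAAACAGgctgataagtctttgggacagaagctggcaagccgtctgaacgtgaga
The intron has 114 bases. The deposited CAT2 model 1 is 1930 bases long, 463 fewer than the annotated one, while the deposited model 2 has the annotated 2259 bases. Without the intron, model 2 is still 215 bases longer than the deposited model 1, so reads on model 2 can also come from its ends. Stretches around the intron that tell the models apart span 92 bases of model 1 and 206 bases of model 2. Counted reads covered more than that on model 1 in both libraries and on model 2 in Col-0, so for CAT2 the junction shown is not all of the counted part.

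The catalases did not move together. CAT2 (AT4G35090, chromosome 4 from 16700312 to 16703504 on TAIR10.1) had 822 reads in FMO5-OE, against 976 in Col-0, or 65.1 CPM and 87.3 CPM. Its FMO5-OE level was 0.746 times that of Col-0 (counting interval 0.679 to 0.820), the lowest log2 ratio among the members at 5 CPM or more, -0.42. Reads on CAT2 model 1 numbered 815 in FMO5-OE and 947 in Col-0 and covered 162 and 178 bases. Model 2 had 7 reads in FMO5-OE over 156 bases, against 29 in Col-0 over 406 bases. Model 1 took 99.1% of the reads in FMO5-OE (98.3% to 99.7%) and 97.0% in Col-0 (95.8% to 98.0%), with exact intervals that did not overlap. The lower level of CAT2 thus stood on model 1, which held nearly all of its reads. CAT1, a catalase known from seeds and roots, was covered along its whole model and had 680 reads in FMO5-OE, against 566 in Col-0, or 53.9 CPM and 50.6 CPM, a ratio of 1.06 (0.951 to 1.19). CAT3 had 1.90 CPM in FMO5-OE and 1.43 CPM in Col-0. With a ratio interval of 0.677 to 2.68, its direction was not measurable from so few reads.

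**Figure D3:**
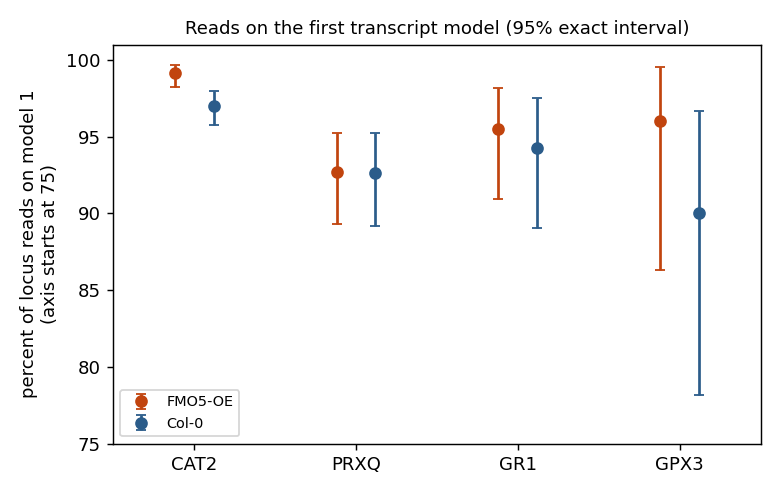
Percent of a locus's reads counted on transcript model 1 in FMO5-OE and Col-0, with 95% exact intervals, for CAT2, PRXQ, GR1 and GPX3. The intervals of the libraries are apart for CAT2 (99.1% and 97.0%) and overlap for the other genes.

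In the other genes with several listed models, the exact intervals of the libraries overlapped. PRXQ model 1 took 92.7% in FMO5-OE (89.3% to 95.3%) and 92.6% in Col-0 (89.2% to 95.2%), on 304 and 301 reads. Model 2, with the 3 extra bases, had 24 reads in each library. They covered 92 bases in FMO5-OE and 143 in Col-0, while stretches around the junction that model 1 lacks span 97 bases. In Col-0 the junction is thus not all of the counted part of model 2. GR1 model 1 took 95.5% in FMO5-OE and 94.3% in Col-0, and GPX3 model 1 took 96.0% in FMO5-OE and 90.0% in Col-0, each with overlapping intervals. Where reads were few, shares lay far apart with wide intervals. MDAR6 model 2 took 71.4% of 28 reads in FMO5-OE (51.3% to 86.8%) and 91.7% of 36 in Col-0 (77.5% to 98.2%). APX1 model 6 took 42.9% of 14 reads in FMO5-OE (17.7% to 71.1%) and 73.3% of 15 in Col-0 (44.9% to 92.2%).

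Of the 3 superoxide dismutases, FSD3 was lower in FMO5-OE beyond counting error, while the ratios of FSD2 and MSD1 had intervals that span 1. FSD3, an iron enzyme of the plastid nucleoid (AT5G23310, chromosome 5 from 7850444 to 7852534), had 429 reads in FMO5-OE and 467 in Col-0, or 34.0 CPM and 41.8 CPM, a ratio of 0.814 (0.712 to 0.930). Its partner FSD2 (AT5G51100) had 292 reads in FMO5-OE and 222 in Col-0, or 23.1 CPM and 19.9 CPM, a ratio of 1.17 (0.976 to 1.39). Per length, FSD3 stood at 1.297 times FSD2 in FMO5-OE (1.11 to 1.51) and at 1.86 times in Col-0 (1.58 to 2.19). The intervals of that ratio did not overlap, and as a ratio within a library it does not depend on scaling. It shows an unequal difference between the libraries beyond counting error, and not which gene differed. MSD1 (AT3G10920, chromosome 3 from 3417940 to 3419892) had 115 reads in FMO5-OE and 83 in Col-0, or 9.11 CPM and 7.42 CPM. Its ratio of 1.23 (0.918 to 1.65) gave the largest log2 ratio among members at 5 CPM or more, 0.26, and its reads covered 9.14% in FMO5-OE and 9.52% in Col-0 of the model.

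**Figure D4:**
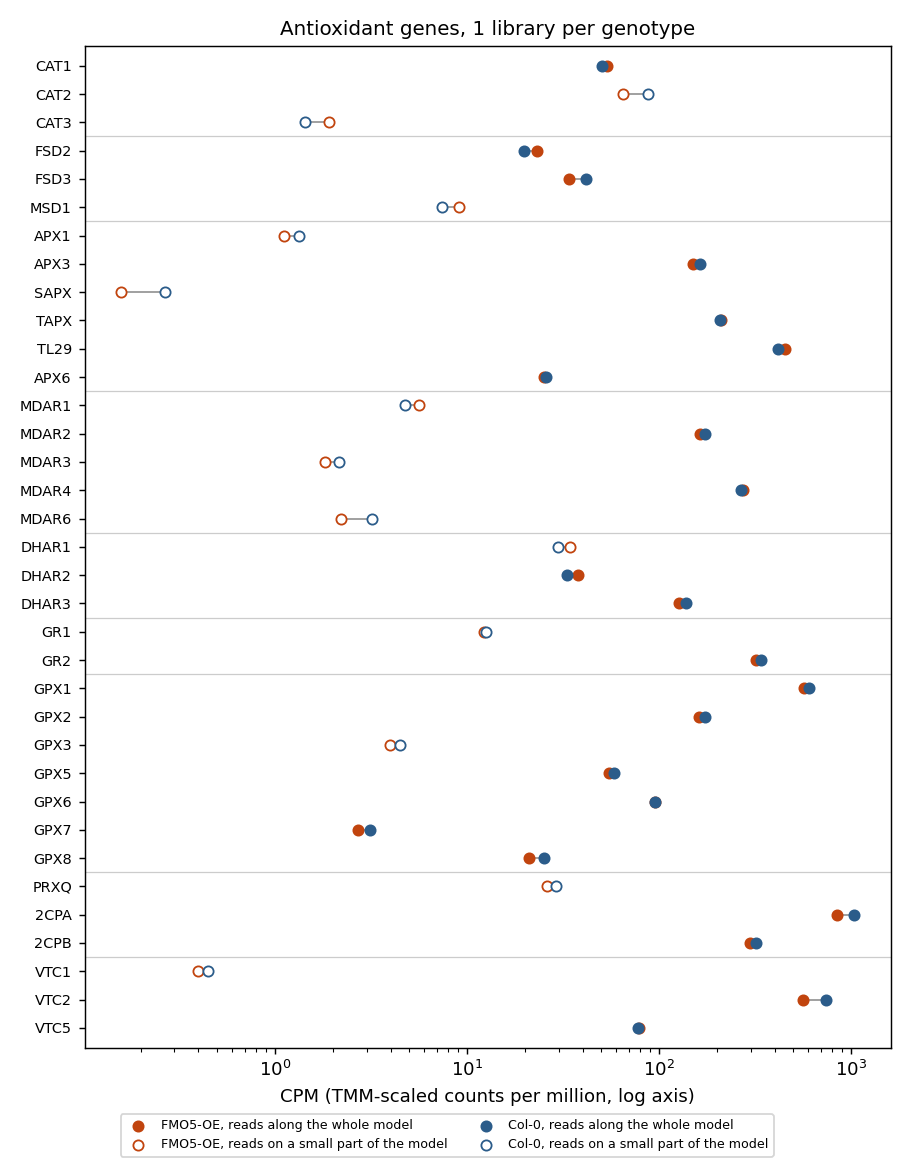
TMM-scaled CPM (log axis) of the 35 members with counts in FMO5-OE and Col-0, 1 point per library, grouped by enzyme family, with open points for genes whose reads lay on a small part of the model. Points of a gene nearly coincide for most, with the widest gaps among filled points at VTC2 (560 and 743 CPM), FSD3 (34.0 and 41.8 CPM) and 2CPA (845 and 1034 CPM).

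Under TMM, the chloroplast ascorbate peroxidase gene TAPX was at its Col-0 level within counting error. The related TL29 was slightly above its own. TAPX, the thylakoid-bound enzyme, had 2654 reads in FMO5-OE and 2316 in Col-0, or 210 CPM and 207 CPM, a ratio of 1.02 (0.960 to 1.07). TL29, a thylakoid lumen protein related to ascorbate peroxidases, had 5736 reads in FMO5-OE and 4674 in Col-0, or 455 CPM and 418 CPM, a ratio of 1.09 (1.046 to 1.13). Both are among the 22 genes counted along the model. APX3, bound to the peroxisome membrane, had 150 CPM in FMO5-OE and 163 CPM in Col-0, a ratio of 0.924, and APX6 had 25.04 CPM in FMO5-OE and 25.9 CPM in Col-0. SAPX, the stromal enzyme, had 2 reads in FMO5-OE and 3 in Col-0, and APX1 1.11 CPM in FMO5-OE and 1.34 CPM in Col-0, too few to compare.

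The reductases that restore ascorbate and glutathione stayed close to their Col-0 levels. MDAR4, a monodehydroascorbate reductase of the peroxisome membrane, had 3462 reads in FMO5-OE and 2974 in Col-0, a CPM ratio of 1.03 (0.982 to 1.08). MDAR2, a cytosolic form, had 2073 reads in FMO5-OE and 1947 in Col-0, with a ratio of 0.944 (0.886 to 1.004). The remaining monodehydroascorbate reductases were counted on small parts, with 71 reads for MDAR1, 23 for MDAR3 and 28 for MDAR6 in FMO5-OE, against 53, 24 and 36 in Col-0, and the intervals of all 3 ratios span 1. Under TMM, the cytosolic dehydroascorbate reductases DHAR1 and DHAR2 were higher in FMO5-OE by nearly the same factor. The plastid form DHAR3 was lower. DHAR1 had 34.3 CPM in FMO5-OE and 30.0 CPM in Col-0, a ratio of 1.15 (0.991 to 1.32). DHAR2 had 37.6 CPM in FMO5-OE and 33.3 CPM in Col-0, a ratio of 1.13 (0.986 to 1.299), and both intervals span 1. DHAR3 had 127 CPM in FMO5-OE and 138 CPM in Col-0, a ratio of 0.924 (0.861 to 0.991), or 0.987 with total count CPM. The per-length ratio of DHAR3 to DHAR2 was 3.30 in FMO5-OE (2.98 to 3.67) and 4.05 in Col-0 (3.61 to 4.54), with overlapping intervals. DHAR1 shares 13.9% of its 49-base stretches with AT1G19540 or AT1G19550. GR2, the glutathione reductase of plastids and mitochondria, had 4041 reads in FMO5-OE and 3784 in Col-0, a ratio of 0.946 (0.905 to 0.990). With total count CPM the ratio of GR2 was 1.01. The cytosolic GR1 had 155 reads in FMO5-OE and 140 in Col-0, a ratio of 0.981 (0.776 to 1.24).

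The 7 glutathione peroxidase-like genes among the members lay between -0.25 and 0.01 in log2 ratio, 6 of them below 0. Total count CPM moves GPX1 and GPX5 to just above 0. GPX1, of the plastid, had 7155 reads in FMO5-OE and 6755 in Col-0, or 567 CPM and 604 CPM. GPX2 had 161 CPM in FMO5-OE and 173 CPM in Col-0, and both were covered along the whole model. GPX5 had 54.8 CPM in FMO5-OE and 58.4 CPM in Col-0, and GPX6, the one gene above 0, had 95.6 CPM in FMO5-OE and 94.9 CPM in Col-0. The one with the lowest ratio, GPX8, had 265 reads in FMO5-OE and 282 in Col-0, a ratio of 0.833 (0.702 to 0.988), or 0.890 with total count CPM. GPX3 had 50 reads in each library. GPX7, a plastid relative of GPX1, had 34 reads in FMO5-OE and 35 in Col-0. Of the 49-base stretches of its annotated models, 41.1% also lie in AT4G31875. The deposited model is shorter, with 702 bases against 1698 annotated, and reads covered 81.6% of it in FMO5-OE and 85.0% in Col-0. Per length, GPX1 stood at 150 times GPX7 in FMO5-OE (107 to 216) and at 137 times in Col-0 (98.6 to 197).

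Of the 3 peroxiredoxins, 2CPA was lower in FMO5-OE past the 1.2-fold rule under TMM, and 2CPB and PRXQ were not. With total count CPM the ratios were 0.873 for 2CPA, 0.992 for 2CPB and 0.956 for PRXQ. The 2-Cys peroxiredoxins reduce hydrogen peroxide in the chloroplast stroma and are recharged mainly by the thioredoxin reductase NTRC. 2CPA (AT3G11630, chromosome 3 from 3672036 to 3674159) had 10658 reads in FMO5-OE and 11567 in Col-0, or 845 CPM and 1034 CPM, a ratio of 0.817 (0.795 to 0.838). 2CPB (AT5G06290) had 3765 reads in FMO5-OE and 3594 in Col-0, or 298 CPM and 321 CPM, a ratio of 0.928 (0.887 to 0.972). Per length, 2CPA stood at 3.38 times 2CPB in FMO5-OE (3.25 to 3.51) and at 3.84 times in Col-0 (3.70 to 3.99). That ratio thus differed between the libraries beyond counting error, with 1 library for each genotype. The 2 genes share no 49-base stretch, although 10.99% of those of 2CPA also lie in AT3G11620. PRXQ had 328 reads in FMO5-OE and 325 in Col-0, or 26.0 CPM and 29.1 CPM, a ratio of 0.894 (0.765 to 1.046).

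Among the genes of ascorbate synthesis, VTC2 was lower in FMO5-OE while its paralog VTC5 was not. Both encode GDP-L-galactose phosphorylase, the step known to limit ascorbate synthesis in Arabidopsis leaves. VTC2 (AT4G26850, chromosome 4 from 13498956 to 13501701) had 7063 reads in FMO5-OE and 8309 in Col-0, or 560 CPM and 743 CPM, a ratio of 0.753 (0.730 to 0.778). It was covered over 99.2% of its model in FMO5-OE and 98.85% in Col-0. VTC5 (AT5G55120) had 990 reads in FMO5-OE and 867 in Col-0, or 78.5 CPM and 77.5 CPM, a ratio of 1.01 (0.923 to 1.11). Per length, VTC2 stood at 6.42 times VTC5 in FMO5-OE (6.002 to 6.86), against 8.62 times in Col-0 (8.03 to 9.25), intervals that did not overlap. VTC1, which makes GDP-mannose at the start of the pathway, had 5 reads in each library and could not be compared.

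**Figure D5:**
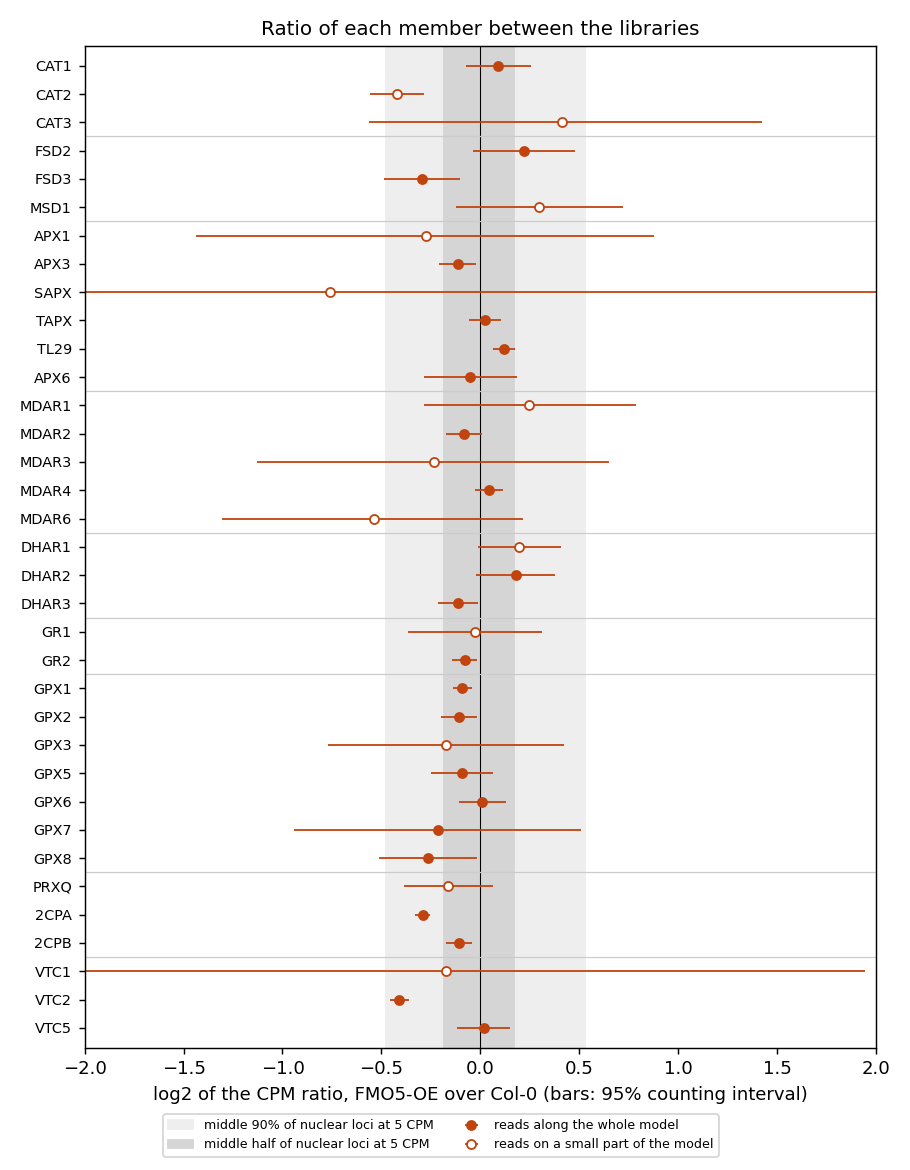
Log2 of the CPM ratio, FMO5-OE over Col-0, for the 35 members with counts, with 95% counting intervals, over bands that hold the interquartile range (dark) and the 5th to 95th percentile (light) of 13019 nuclear loci. VTC2 and 2CPA lie below the dark band with narrow intervals, CAT2 lies there with a wider one, and SAPX and VTC1 have intervals that run off or span most of the axis.

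Set among all nuclear loci at 5 CPM or more, the members' differences were ordinary in size. The interquartile range of log2 ratios over those loci ran from -0.17 to 0.16 and held 17 of the 27 members. The 5th and 95th percentiles were -0.45 and 0.48, and all 27 lay between them. On a percentile scale over those loci, CAT2 stood at 6.06 and VTC2 at 6.34, 2CPA at 13.1 and FSD3 at 13.3, and MSD1 at 85.2. Total count CPM gave ratios of 0.798 for CAT2, 0.805 for VTC2 and 0.873 for 2CPA, so these genes stayed below their Col-0 level under each scaling.

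By the compartment in which the proteins are known to work, which played no part in the choice, the medians of plastid, peroxisomal and cytosolic genes differed less than the genes within each. The 12 measured plastid genes had a median log2 ratio of -0.11, from -0.39 at MDAR6 to 0.21 at FSD2, with 9 below 0. The ratio intervals of MDAR6 and FSD2 span 1. The 6 peroxisomal genes had a median of 0.07, from -0.42 at CAT2 to 0.26 at CAT3, with 4 above 0. The ratio intervals of all 4 span 1, and CAT3 had few reads. The 3 peroxisomal genes counted along the model ran from -0.11 to 0.09, with 2 above 0. The 10 measured cytosolic genes had a median of -0.10, from -0.41 at VTC2 to 0.19 at DHAR1. Summed over the 10 plastid genes counted along the model, CPM came to 2882 in FMO5-OE and 3126 in Col-0, and over the 6 cytosolic genes of that class to 1022 and 1226. VTC2 makes up most of the difference of the cytosolic sums, and 2CPA most of that of the plastid sums. The 3 peroxisomal genes of that class summed to 478.6 CPM in FMO5-OE and 479.3 CPM in Col-0.

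Markers of green tissue were lower in FMO5-OE under TMM, and root markers went both ways. All 8 green tissue markers had log2 ratios below 0, from -0.32 to -0.06 with a median of -0.23. With total count CPM, RCA and GAPA1 pass to just above 0. The lowest were RBCS1A, LHCB1.3 and PSAD-1, and the markers' summed CPM was 37443 in FMO5-OE and 44826 in Col-0. Of these sums, LHCB1.3 alone held 19027 CPM in FMO5-OE and 23644 CPM in Col-0. In each library, reads covered 10.05% of the leading model of RBCS1A and 5.13% of that of RCA. Root markers had a median of 0.07, with 5 of 8 measured genes above 0 (with total count CPM also RCI3) and summed CPM of 6034 in FMO5-OE and 5571 in Col-0. Nearly all of that sum is PYK10, with 5813 CPM in FMO5-OE and 5341 CPM in Col-0, and CASP1 and PIN2 had ratios of 0.861 and 0.875. The root cap factor SMB had 1 read in FMO5-OE and 0 in Col-0, while the root hair genes COBL9 and EXPA7 had 233 and 191 reads in FMO5-OE, against 203 and 136 in Col-0. CAT2, VTC2 and 2CPA, which were lower in FMO5-OE, are known to be strongly expressed in green tissue, as are TL29 and TAPX, with ratios of 1.09 and 1.02. The part of tissue makeup in these values was not tested.

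Levels per length could be ordered for the 22 genes counted along the model, as RPKM, the count scaled to model length and library total. In FMO5-OE the order began with 2CPA at 866 RPKM, GPX1 at 594, TL29 at 367, VTC2 at 278 and 2CPB at 256. In Col-0 it began with 2CPA at 993 RPKM, GPX1 at 592, VTC2 at 345, TL29 at 316 and 2CPB at 258. TL29 and VTC2 thus stood in opposite order, with TL29 at 1.32 times VTC2 in FMO5-OE (1.28 to 1.37) and VTC2 at 1.09 times TL29 in Col-0 (1.052 to 1.13). GPX7 was lowest in both libraries, at 3.97 RPKM in FMO5-OE and 4.31 RPKM in Col-0, and the next gene up was APX6 at 21.4 RPKM in FMO5-OE and FSD2 at 18.4 RPKM in Col-0. Of the 21 pairs of neighbours in the order, 16 were apart beyond counting error in FMO5-OE and 15 in Col-0. Pairs that were not apart included DHAR3 with TAPX in FMO5-OE (137 and 136 RPKM) and GR2 with MDAR4 in Col-0 (149 and 145 RPKM).

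A list of 41 other genes of ascorbate, glutathione, superoxide and thiol metabolism gave wider differences at single genes. Of its 27 genes at 5 CPM or more, 2 were higher in FMO5-OE by 1.5-fold or more and 2 lower, counts too small to set apart from the 3.38% and 2.26% of all nuclear loci, and the median over 34 genes at 1 CPM or more was -0.05. RBOHD, the plasma membrane NADPH oxidase that makes superoxide in defence and stress signalling, had 1738 reads in FMO5-OE and 995 in Col-0, a ratio of 1.55 (1.43 to 1.67). GME, the epimerase between VTC1 and VTC2 in ascorbate synthesis, had 210 reads in FMO5-OE and 116 in Col-0, a ratio of 1.60 (1.27 to 2.03), on reads that covered 5.77% of its leading model in FMO5-OE. PRXIIC, a cytosolic peroxiredoxin with a close relative beside it, had 351 reads in FMO5-OE and 527 in Col-0, a ratio of 0.590 (0.514 to 0.677), over 52.0% of its model in FMO5-OE. CSD2, the chloroplast copper/zinc superoxide dismutase, had 450 reads in FMO5-OE and 607 in Col-0, a ratio of 0.657 (0.580 to 0.743), which falls short of 1.5-fold with total count CPM at 0.702. Sulfiredoxin, SRX, which repairs overoxidized 2-Cys peroxiredoxins, had 47 reads in FMO5-OE and 68 in Col-0, a CPM ratio of 0.612 (0.413 to 0.901). It fell just short of the rule at a log2 ratio of -0.58, on reads that covered 18.4% of its leading model in FMO5-OE and 10.15% in Col-0. The iron superoxide dismutase FSD1 is used by plants in place of CSD2 when copper is short. It had 1829 reads in FMO5-OE and 1645 in Col-0, a ratio of 0.985 (0.921 to 1.054), over 13.2% of its leading model. Of the electron donors of the plastid peroxiredoxins, NTRC had a ratio of 0.971 (0.924 to 1.02) and the thioredoxins TRXX and CDSP32 ratios of 0.804 (0.758 to 0.854) and 0.767 (0.732 to 0.804). The 4 glutathione synthesis and breakdown genes held 3 at 1 CPM or more, all above 0, among them GSH2, the second enzyme of glutathione synthesis, at 1.13 (1.04 to 1.22). GGT1, a gamma-glutamyl transferase that breaks down glutathione outside the cell, had the largest log2 ratio of the 41 genes, 0.83. It had 46 reads in FMO5-OE and 18 in Col-0, a ratio of 2.26 (1.29 to 4.15), and lay below the 5 CPM minimum. Those reads covered 8.02% of its leading model in FMO5-OE and 7.72% in Col-0. GSH1, the first enzyme, had 0 reads in FMO5-OE and 1 in Col-0.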

How the data were processed

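Values came from 1 RNA-seq library per genotype. Per the file headers, the deposited tables give, for every transcript model with reads, its count of unique reads, length, RPKM and percent covered. The build is TAIR10, per the submitters' processing notes. The sources used here name no aligner, counter or strand setting. Models with no reads are not listed.

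Counts were summed over the models of a locus and scaled by TMM (edgeR 4.0.16, R 4.3.3), with factors of 1.03 for FMO5-OE and 0.967 for Col-0. RPKM was recomputed from count, length and total. Intervals (scipy 1.17.1) are at 95%. At 5 CPM stood 63.1 reads in FMO5-OE and 55.9 in Col-0. Names, coordinates and sequences are from RefSeq's TAIR10.1 annotation, in which 12 of 45 listed models had the deposited length. Of 36 members, 28 share no 49-base stretch with another annotated locus, and 0 share one with another member. Folds and intervals were tested on simulated counts with counting error alone. That check does not cover differences between seedling samples.

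Members and lists were chosen with earlier results of these data known. All members are named, and of the other redox genes and the tissue markers those at least 1.5-fold apart at 5 CPM or among the 3 largest ratios. FSD1, NTRC, TRXX, CDSP32, GSH1, GSH2, RCA, GAPA1, GGT1, SRX, RCI3, PYK10, CASP1, PIN2, SMB, COBL9 and EXPA7, and the pairs of genes set against each other, were chosen outside that rule after their values were seen. Alternatives were DESeq2 1.42.0 size factors, total count CPM, equal nuclear totals, pseudocounts of 0.1 and 5, other minima and the model with most reads.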

Additional observations from a re-analysis of the deposited data

How the results depend on the processing

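No paired analysis was possible because each genotype had a single library. The counts of members at least 1.5-fold or 2-fold apart stayed at 0 under all alternatives run. The 1.2-fold rule, chosen after the data were seen, gave 5 higher and 2 lower with total count CPM and 4 higher and 2 lower with equal nuclear totals. The higher count was 0 with a pseudocount of 5, with a 20 CPM minimum, and over the 22 wholly covered genes alone. The median of all nuclear loci was -0.00501 with DESeq2 size factors, 0.0805 with total count CPM and 0.0739 with equal nuclear totals, against -0.0131. These scalings shift all genes alike: the median of the members was 0.00509 with total count CPM. Of 210 member values under alternatives, 191 moved in log2 by no more than the longer arm of their counting interval. That arm is wide for genes with few reads, so the count partly reflects read number. In all, 10 values of 6 members changed sign, all with total count CPM or equal nuclear totals. SAPX, VTC1, APX1 and CAT3 had few reads, on a small part of each model, and APX2 had none. Their direction could not be measured, and the part of depth in these low counts was not tested.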
